A study of Homo sapiens with 6 samples.

Results

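The 8 genes described here encode adrenergic core transcription factors of neuroblastoma: PHOX2A, HAND1, HAND2, GATA2, GATA3, ISL1, TBX2 and TFAP2B. They were chosen by name from 18404 genes measured on the arrays, with earlier results of these data known. Each had a single array row with a single gene symbol, so all 8 were measured and no choice between rows was needed. RNA came from BE(2)-C, a clonal subline of the human neuroblastoma line SK-N-BE(2) with amplified MYCN. The cells were kept in DMEM with dialysed fetal bovine serum. The 3 control samples received 0.05% DMSO, the solvent, for 24 h, and the 3 treated samples received 5 µM BIX01294 for 24 h. The DMSO content of the treated samples is not given in the labels. BIX01294 inhibits EHMT2 and EHMT1, enzymes that methylate histone H3 at lysine 9. The design text calls the samples independent, and a clone of a single line has no spread between donors, so the p-values cover the spread between cultures of this clone only.

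Neuroblastoma arises from the sympathoadrenal lineage of the neural crest. In its adrenergic state, a small group of lineage transcription factors bind the enhancers of their own and of each other's genes, a mutual arrangement called a core regulatory circuitry, and drive noradrenergic genes such as those of catecholamine synthesis. A mesenchymal state with another set of factors is known in the same tumours.

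The array values are log2 expression values with 1 array per sample, and array medians lay between 6.94 and 7.01. All 8 members lay above the median of every array. So did all 8 measured markers of neuroblastoma (DBH, TH, DDC, CHGA, CHGB, MYCN, GAP43 and STMN2), against 0 of 5 Schwann cell and glial markers, 4 of 8 fibroblast markers and 1 of 5 leukocyte markers. After the treatment, 2 of the 8 neuroblastoma markers were called higher (GAP43 and DDC), 2 lower (STMN2 and CHGA) and 4 did not pass. GAP43 and STMN2 kept their calls with any single array left out, whereas those of DDC and CHGA depended on single arrays. Among markers of other cell types, most fibroblast markers were called higher or lower after the treatment, where 23.6% of all genes were called. The leukocyte list and the Schwann cell and glial list had 1 of 5 called each, a share below that of all genes. The mean level of the fibroblast markers ran from 8.27 to 8.31 on the DMSO arrays and from 7.83 to 7.90 on the BIX01294 arrays. Of the 8, 4 were lower (DCN, LUM, PDGFRA and PDGFRB) and 1 was higher (THY1). The largest falls were those of DCN (-1.50, log2) and PDGFRB (-1.16). The collagen genes COL1A1, COL1A2 and COL3A1 did not pass (adjusted p 0.975, 0.765 and 0.913 in limma). PDGFRA lost its call without any of the DMSO arrays (adjusted p up to 0.0676 in limma). The leukocyte markers had a mean level of 5.39 to 5.54 in DMSO and 5.56 to 5.60 in BIX01294, with CD68 1.46-fold higher (adjusted p 0.00173 in limma) as the only one of 5 called. The Schwann cell and glial markers had a mean of 6.47 to 6.54 and 6.53 to 6.62, with S100B 1.34-fold higher (0.0177) as the only one of 5 called, a call lost without BIX01294 replicate 1 or 3 (up to 0.0617). The part of these markers in the results below was not tested. On bulk RNA, a change in the number of cells of a type and a change in RNA per cell cannot be told apart. The values were used without detection calls.

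After 24 h in BIX01294, ISL1, HAND1 and GATA2 were higher and TBX2, GATA3 and PHOX2A were lower, while HAND2 and TFAP2B did not pass the test. The test was limma, two-sided, with Benjamini-Hochberg adjustment over all 18404 genes and a threshold of 0.05. The changes were small, from a 1.33-fold fall to a 1.26-fold rise. The 3 higher and 3 lower members compare with 12.9% of all genes called higher and 10.7% called lower, or 23.6% in either direction. The members are bright genes, and brighter genes were called more often: among the 5290 genes at or above the mean level of TBX2, the dimmest member at 8.93, 40.2% were called. The BIX01294 and DMSO arrays did not overlap in any of the 8 members, where this held for 40.1% of all genes (21.4% higher and 18.7% lower) and for 66.8% of those 5290 genes, a comparison added after the data were seen. The median absolute change of the members was 0.22 on the log2 scale, against 0.11 over all genes and 0.16 over the genes at or above the level of TBX2. With 3 arrays a group, some of these calls depended on single arrays: the 3 lower members fell to 1 without DMSO replicate 1, DMSO replicate 2 or BIX01294 replicate 3. The split was 2 higher and 4 lower after quantile normalization and 3 higher and 2 lower with each array centred on its median. Over all genes the same choices moved the calls from 2379 higher and 1970 lower to 2256 and 2282, and to 2762 and 1536.

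**Figure D1:**
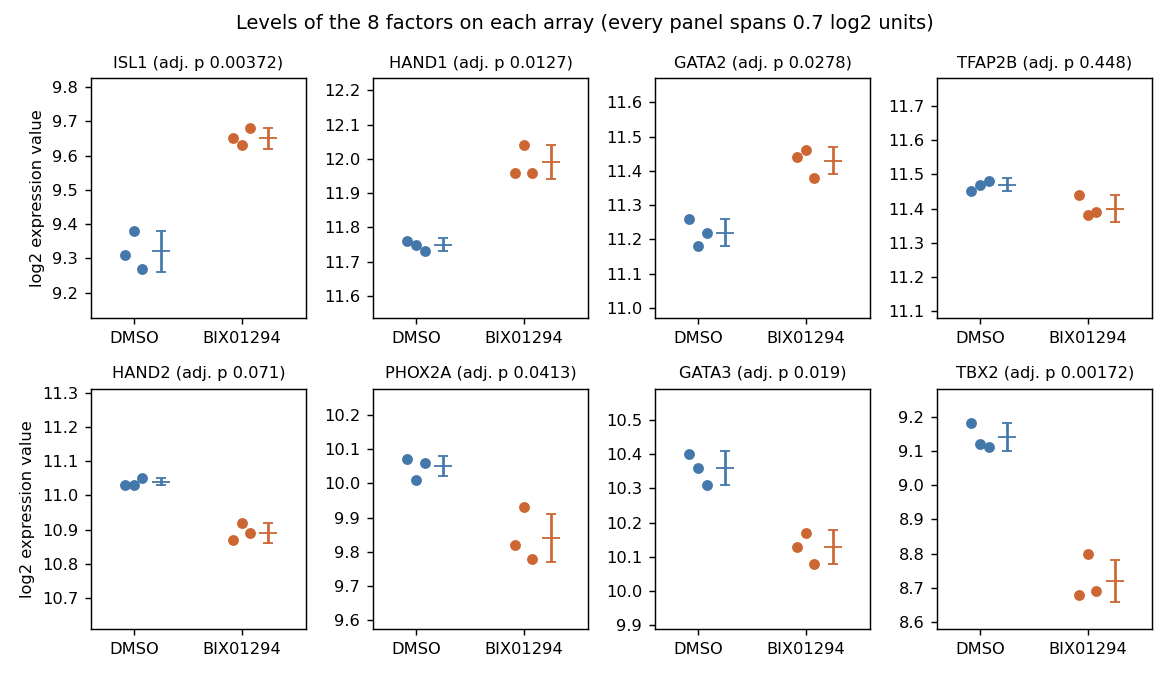
Each panel plots the log2 expression value (vertical axis, the same span in every panel) of a factor on the 3 DMSO arrays (blue) and the 3 BIX01294 arrays (orange). The bar beside the points is the mean with the SD (n = 3), and the adjusted p is limma's; the groups do not overlap in any panel, with the narrowest gap in TFAP2B.

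The largest rise among the members was that of ISL1, a LIM-homeodomain factor needed for the formation of sympathetic neurons. ISL1 measured 9.31, 9.38 and 9.27 on the DMSO arrays and 9.65, 9.63 and 9.68 on the BIX01294 arrays. The lowest BIX01294 array lay 0.246 above the highest DMSO array, a gap wider than the range within either group. ISL1 rose by 0.34 ± 0.0556 (SE; log2), or 1.26-fold. Its limma adjusted p was 0.00372, and the call held when any single array was left out.

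The paralogs HAND1 and HAND2 moved apart. Both encode basic helix-loop-helix factors that bind DNA with E proteins, and HAND2 is needed for the noradrenergic differentiation of sympathetic neurons. HAND1 measured 11.76, 11.75 and 11.73 in DMSO and 11.96, 12.04 and 11.96 in BIX01294. It rose 1.18-fold, a log2 change of 0.24 ± 0.053 (SE), and its limma adjusted p was 0.0127. The call held when any single array was left out. HAND2 measured 11.03, 11.03 and 11.05 in DMSO and 10.87, 10.92 and 10.89 in BIX01294. All 3 treated arrays were therefore below the controls, but the difference of -0.15 ± 0.0503 (SE) did not pass (adjusted p 0.071 in limma), and its 95% interval ran from -0.26 to -0.03. It passed after quantile normalization (adjusted p 0.022), with either filter on dim genes (0.0396 and 0.0178) and with an intensity trend and robust estimation together (0.00726). The difference between HAND1 and HAND2 within an array, relative to its DMSO mean, was 0.02, 0.01 and -0.03 in DMSO and 0.39, 0.42 and 0.36 in BIX01294. The changes of the paralogs thus differed by 0.39, more than the spread of 0.03 (SD, n = 3) within each group, with an exact permutation p of 0.1 (two-sided), the smallest that 3 arrays against 3 allow.

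GATA2 and GATA3, zinc finger factors that both act in sympathetic neuron development, also moved apart. GATA2 measured 11.26, 11.18 and 11.22 in DMSO and 11.44, 11.46 and 11.38 in BIX01294, a rise of 0.21 ± 0.0545 (SE), 1.15-fold (adjusted p 0.0278 in limma). GATA3 measured 10.40, 10.36 and 10.31 in DMSO and 10.13, 10.17 and 10.08 in BIX01294, a fall of 1.18-fold (-0.23 ± 0.0562 SE, adjusted p 0.019 in limma). Every treated array was above the controls for GATA2 and below them for GATA3. Within an array, GATA3 relative to GATA2 was 0.00, 0.05 and -0.05 in DMSO and -0.44, -0.43 and -0.44 in BIX01294, a difference of -0.44 with an exact permutation p of 0.1 (two-sided). Both GATA calls depended on single arrays. GATA2 lost its call after quantile normalization (0.0562) and when DMSO replicate 1 (0.0546), 2 (0.0995) or 3 (0.0554) was left out, as it did when BIX01294 replicate 1 (0.0780) or 2 (0.0837) was, all adjusted p-values from limma. It also lost it with the replicate number as a block (0.0623). GATA3 lost its call without DMSO replicate 1 (0.0738), DMSO replicate 2 (0.061) or BIX01294 replicate 3 (0.0721). GATA3-AS1, a non-coding gene whose annotated span overlaps that of GATA3, differed by -0.18 ± 0.0559 (SE) and did not pass (adjusted p 0.052 in limma). Whether the array rows tell the strands apart is not given in the sources used here.

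TBX2, a T-box factor that mostly represses transcription and lies on chromosome 17, had the largest fall among the members. It measured 9.18, 9.12 and 9.11 in DMSO and 8.68, 8.80 and 8.69 in BIX01294. The highest treated array lay 0.315 below the lowest control. The fall was 1.33-fold, a log2 change of -0.41 ± 0.0577 (SE), and limma's adjusted p was 0.00172. The call held in all 16 alternatives, including each array left out. TBX3, its close relative and also a repressor, went the other way: it measured 9.94, 9.90 and 9.81 in DMSO and 10.24, 10.28 and 10.29 in BIX01294 (1.31-fold higher, adjusted p 0.00213 in limma). Within an array TBX3 relative to TBX2 was 0.81, 0.73 and 0.86 in BIX01294 and lay between -0.04 and 0.03 in DMSO. That pair was picked after its values were seen, and the exact permutation p of 0.1 (two-sided) is again the smallest possible. Of the nearest measured genes on either side of TBX2, BCAS3 fell 1.65-fold (8.77 ± 0.12 in DMSO and 8.05 ± 0.06 in BIX01294, SD, n = 3, adjusted p 0.00043 in limma). The non-coding gene LINC02875 differed by 0.01 ± 0.103 (SE), but it was dim, at 6.63 in DMSO and 6.64 in BIX01294, below the array medians.

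PHOX2A, a paired-like homeodomain factor that activates the gene of dopamine beta-hydroxylase, measured 10.07, 10.01 and 10.06 in DMSO and 9.82, 9.93 and 9.78 in BIX01294. The treated arrays were lower, with BIX01294 replicate 2 nearest to the controls. The fall was 1.15-fold (-0.20 ± 0.0589 SE, adjusted p 0.0413 in limma). PHOX2A no longer passed when DMSO replicate 1 (adjusted p 0.119), 2 (0.0772) or 3 (0.0865) or BIX01294 replicate 1 (0.109) or 3 (0.134) was left out. It was also lost after centring each array on its median (0.0806) and with the replicate number as a block (0.0847). INPPL1, an inositol phosphatase gene whose annotated span overlaps that of PHOX2A, was lower by a like amount (-0.19 ± 0.0552 SE, adjusted p 0.0368 in limma), a call kept only without DMSO replicate 3 among the fits with an array left out (up to 0.122 otherwise). Shared array signal between that pair was not tested.

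TFAP2B encodes AP-2 beta, a factor of the neural crest and sympathetic ganglia, and moved least. It measured 11.45, 11.47 and 11.48 in DMSO and 11.44, 11.38 and 11.39 in BIX01294. The groups were separated by 0.00561 only. The difference was -0.06 ± 0.0515 (SE), with a 95% interval of -0.18 to 0.06 and an adjusted p of 0.448 in limma. It did not pass in any of the 16 alternatives.

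**Figure D2:**
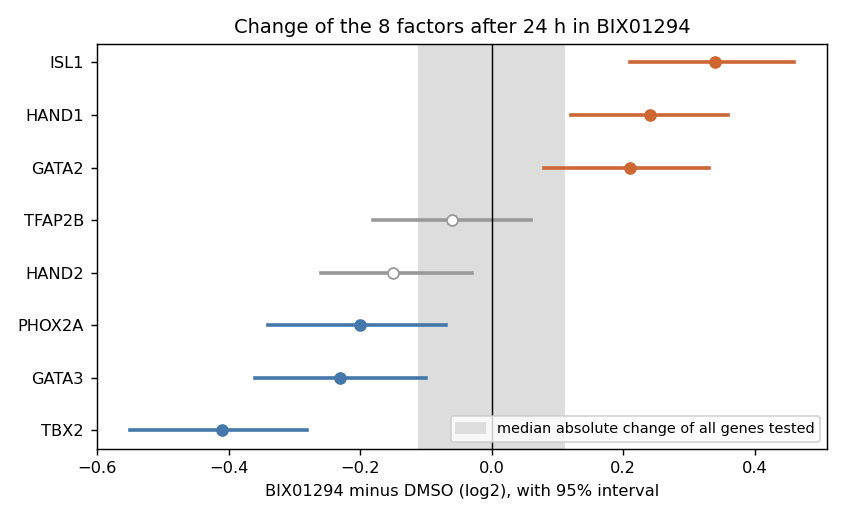
Points give the change of each factor (BIX01294 minus DMSO, log2) and lines its 95% interval from limma, with filled points for an adjusted p under 0.05. The grey band spans 0.11 on either side of zero, the median absolute change of all 18404 genes; ISL1, HAND1 and GATA2 lie above it and TBX2, GATA3, PHOX2A and HAND2 below it.

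**Figure D3:**
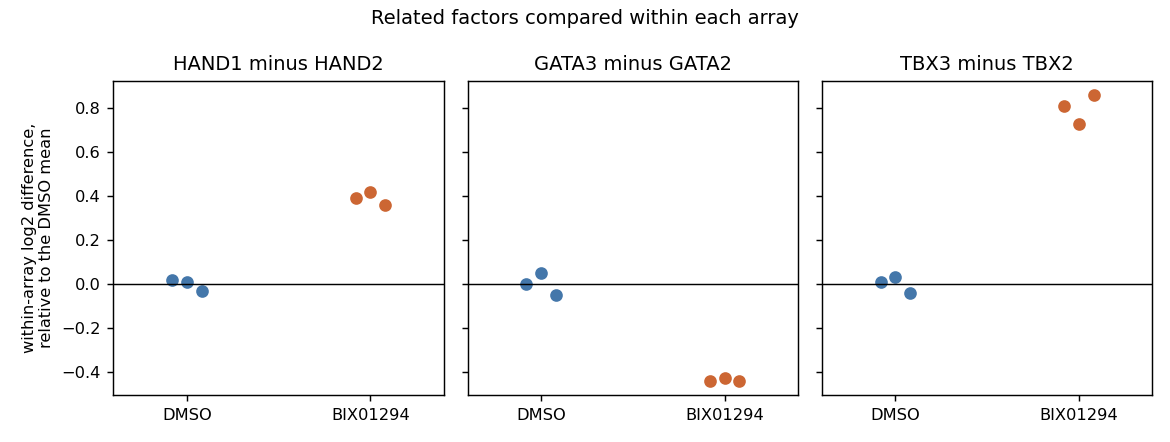
Each point is an array, and the vertical axis is the log2 difference between a pair of related factors on that array minus the mean of this difference over the DMSO arrays. DMSO arrays (blue) lie within 0.05 of zero, and the BIX01294 arrays (orange) lie at 0.36 to 0.42 for HAND1 and HAND2, at -0.44 to -0.43 for GATA3 and GATA2, and at 0.73 to 0.86 for TBX3 and TBX2.

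**Figure D4:**
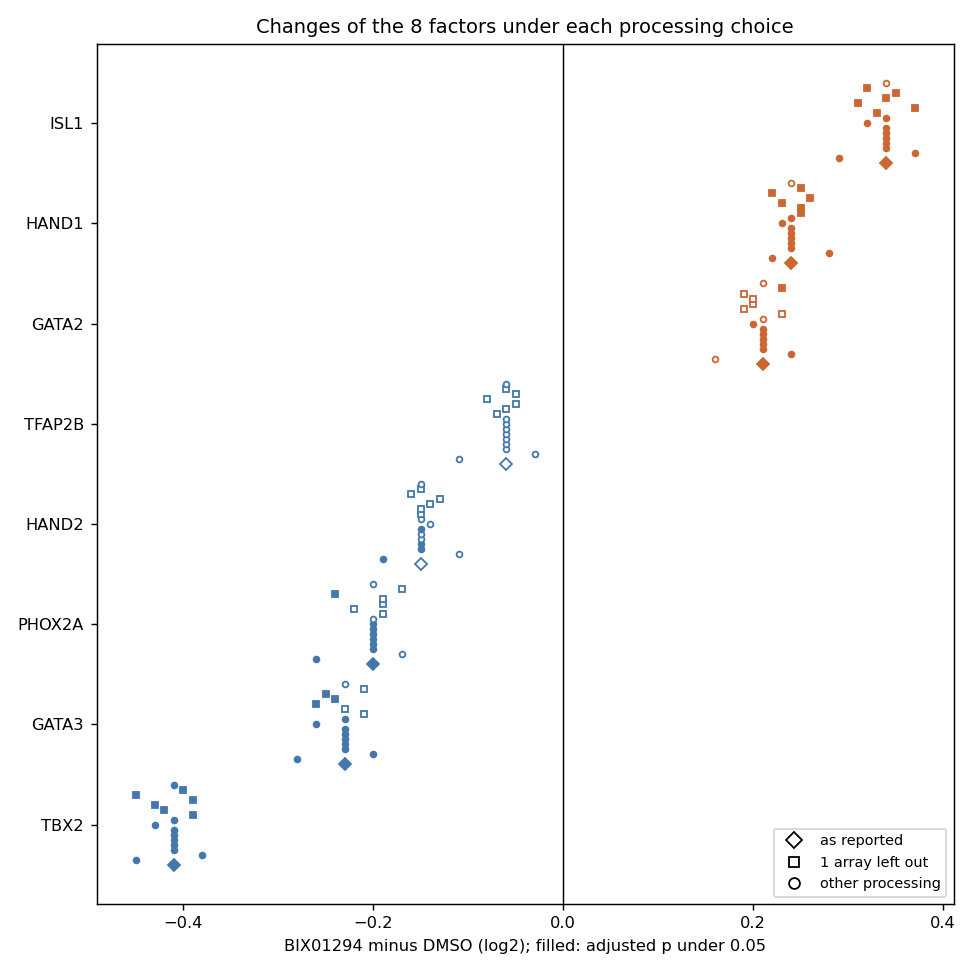
The change of each factor (BIX01294 minus DMSO, log2) is shown as reported (diamond), with 1 array left out (squares) and under other processing (circles), with filled symbols for an adjusted p under 0.05. No factor changed sign; TBX2 is filled throughout, whereas PHOX2A and GATA2 turn open in 8 of 16 alternatives each.

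Since factors of this circuit are known to bind each other's regulatory DNA, the 250 bases before the start site were read. They came from RefSeq sequences (GRCh38.p14) for 7 of the 8 genes, with several start sites for GATA2 (2) and GATA3 (6). TBX2 had no sequence entry and was not searched. The letters GATAA, which GATA factors recognise, were searched on both strands, along with TAATTA (homeodomain), CANNTG (basic helix-loop-helix), GCCNNNGGC (AP-2) and GGTGTGA (T-box). Matches of different motifs may share bases. The windows of HAND1, HAND2, ISL1 and PHOX2A are printed below, as the HAND pair moved apart, ISL1 had the largest rise and PHOX2A fell. All have a single listed start site. Each is written along the gene's strand with GATAA, or TTATC for the other strand, in capitals.
HAND1 (chr5:154478228-154478477, minus strand): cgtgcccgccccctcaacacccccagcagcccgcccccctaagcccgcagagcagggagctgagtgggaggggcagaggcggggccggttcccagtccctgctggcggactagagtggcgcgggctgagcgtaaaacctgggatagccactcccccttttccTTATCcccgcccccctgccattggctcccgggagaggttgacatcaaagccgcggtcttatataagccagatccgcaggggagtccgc
HAND2 (chr4:173530230-173530479, minus strand): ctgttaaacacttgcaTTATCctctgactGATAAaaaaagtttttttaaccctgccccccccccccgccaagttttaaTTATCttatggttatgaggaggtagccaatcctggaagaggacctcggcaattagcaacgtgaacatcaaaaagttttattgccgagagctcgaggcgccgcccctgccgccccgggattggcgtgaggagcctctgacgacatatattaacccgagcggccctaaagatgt
ISL1 (chr5:51383198-51383447, plus strand): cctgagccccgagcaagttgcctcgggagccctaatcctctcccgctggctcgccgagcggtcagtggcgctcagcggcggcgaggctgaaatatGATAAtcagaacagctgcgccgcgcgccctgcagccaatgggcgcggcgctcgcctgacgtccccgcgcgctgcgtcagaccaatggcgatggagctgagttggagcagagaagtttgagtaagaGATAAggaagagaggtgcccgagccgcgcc
PHOX2A (chr11:72244177-72244426, minus strand): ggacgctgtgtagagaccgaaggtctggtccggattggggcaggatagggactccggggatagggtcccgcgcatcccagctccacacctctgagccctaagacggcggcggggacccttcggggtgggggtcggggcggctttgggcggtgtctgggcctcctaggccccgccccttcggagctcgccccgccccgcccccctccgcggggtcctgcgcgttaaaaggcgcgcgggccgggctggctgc
HAND1 held 1 GATAA match, beginning 88 bases before the start. ISL1 held 2, at 155 and 30 bases, and HAND2 held 3, at 234, 221 and 172 bases. PHOX2A held none of the 5 motifs. Of the members called higher, HAND1 and ISL1 held GATAA and GATA2 did not. It was also found in HAND2, which did not pass, and in GATA3, which fell. Binding of any factor to these windows was not tested. Of the 7 members searched, 4 had a GATAA match before at least 1 start site (GATA3 at 1 of its 6). Of 35116 windows, 20.4% hold it. CANNTG was found in 4 members (61.8% of windows), GCCNNNGGC in 3 (19.8%), TAATTA in HAND2 only (4.35%) and GGTGTGA in 0 (2.76%). The member counts are per gene, over 2 windows for GATA2 and 6 for GATA3, whereas the percentages are per window. They are unlike measures, and whether the members hold more matches than other genes was not tested. The printed windows differed in GC content, from 49.6% in HAND2 through 65.2% in ISL1 and 67.2% in HAND1 to 73.2% in PHOX2A.

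Of 18 other measured transcription factors reported for the adrenergic state, 5 fell, 2 rose and 11 did not pass, with a median change of -0.11 against -0.01 over all genes. The share called was 38.9%, against 23.6% of all genes and 40.2% of the genes at or above the level of TBX2. The split was 2 higher and 9 lower after quantile normalization. It was 2 higher and 3 lower after centring, under the replicate block and in each fit that left out an array, except without DMSO replicate 3. SATB1, a chromatin organiser, fell 2.54-fold (7.44 ± 0.13 in DMSO and 6.09 ± 0.02 in BIX01294, SD, n = 3; limma adjusted p 2.82e-05). DACH1, a cofactor of the retinal determination network, fell 1.50-fold, and INSM2, a zinc finger factor of neuroendocrine cells, fell 1.36-fold. EYA1, a cofactor of the same network, fell 1.13-fold, but no longer passed when any of the 6 arrays was left out (adjusted p up to 0.117). PROX1 fell 1.14-fold, a call kept only without DMSO replicate 3 among the 6 fits that left out an array (adjusted p up to 0.158). HEY1, a Notch target and transcriptional repressor, rose 1.78-fold (8.65 ± 0.16 in DMSO and 9.49 ± 0.01 in BIX01294, SD, n = 3), the largest rise of this list. MYCN measured 13.58, 13.50 and 13.53 in DMSO and 13.44, 13.46 and 13.49 in BIX01294, and its difference of -0.08 ± 0.0527 (SE) did not pass (adjusted p 0.343 in limma). SATB1, DACH1, INSM2, HEY1 and TBX3 kept their calls with any single array left out.

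Among partners and inhibitors of the core factors, 5 of 20 fell and 1 rose, with a median change of -0.05. The share called was 30.0%, near the 23.6% of all genes, and quantile normalization gave 4 lower and no higher call. LDB2, a scaffold protein that binds LIM-domain factors such as ISL1, fell 1.53-fold (9.28 ± 0.05 in DMSO and 8.67 ± 0.01 in BIX01294, SD, n = 3; limma adjusted p 0.000237), while its relative LDB1 differed by -0.10 ± 0.0601 (SE) and did not pass. CITED2, a coactivator of AP-2 factors, fell 1.43-fold, and the E protein gene TCF4 fell 1.19-fold. LMO4, a LIM-only protein, fell 1.23-fold, and ID2, an inhibitor of E proteins, rose 1.17-fold. Of these, LMO4 and ID2 kept their calls only without BIX01294 replicate 2 (adjusted p up to 0.128 and 0.1 when another array was left out), and 3 genes of the list were called when DMSO replicate 1, DMSO replicate 2, BIX01294 replicate 1 or BIX01294 replicate 3 was left out.

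Other genes of the same DNA-binding families mostly lay lower on the arrays: 8 of 23 were above the median of every array. Of the 23, 2 fell and 21 did not pass, a share of 8.7% called against 23.6% of all genes. TWIST1, a basic helix-loop-helix factor, fell 1.20-fold (10.77 ± 0.05 to 10.51 ± 0.06, SD, n = 3), and GATA4 fell 1.18-fold. TWIST1 lost its call without BIX01294 replicate 3 (adjusted p 0.0548 in limma), and GATA4 kept it only without BIX01294 replicate 2 (up to 0.108 otherwise). TBX20, which measured 11.00 ± 0.02 in DMSO and 10.84 ± 0.06 in BIX01294 (SD, n = 3), did not pass (adjusted p 0.0665 in limma).

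Of 21 measured genes listed for the noradrenergic or neuronal phenotype, 8 rose, 3 fell and 10 did not pass, with a median change of 0.10. The share called was 52.4%, against 23.6% of all genes and 40.2% of the genes at or above the level of TBX2. The split was 7 higher and 5 lower after quantile normalization and with array weights. CYB561, which supplies electrons to dopamine beta-hydroxylase in secretory vesicles, rose 1.84-fold, from 9.75, 9.80 and 9.67 in DMSO to 10.62, 10.68 and 10.58 in BIX01294 (adjusted p 7.09e-05 in limma). The vesicular monoamine transporter SLC18A2, the neuropeptide gene NPY and the RNA-binding protein gene ELAVL4 rose 1.38-fold, 1.31-fold and 1.22-fold. STMN2, a microtubule regulator of neurons, fell 1.37-fold, DLK1, a Notch-like surface protein of chromaffin cells, fell 1.30-fold, and the granule protein gene CHGA fell 1.14-fold. Among the catecholamine synthesis genes, TH differed by 0.05 ± 0.0579 (SE, adjusted p 0.635 in limma) and DBH by 0.14 ± 0.0569 (adjusted p 0.124), while DDC, 0.18 higher, lay at the threshold. CHGA kept its call only without DMSO replicate 3 (up to 0.074 otherwise), DDC lost its call without any of the 6 arrays (up to 0.134), and the list had 5 higher and 2 lower without DMSO replicate 1 and 4 higher and 2 lower without BIX01294 replicate 3.

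Factors of the mesenchymal state fell in 4 of 25 cases and rose in 2, with a median of 0.04 and a share of 24.0% called, near the 23.6% of all genes. The split was 1 higher and 4 lower after quantile normalization and 3 and 3 after centring. SNAI1, a repressor of epithelial genes, fell 1.54-fold (7.89 ± 0.03 in DMSO and 7.26 ± 0.05 in BIX01294, SD, n = 3; limma adjusted p 0.000222). MAML2, a Notch coactivator, and TEAD1, the DNA-binding partner of YAP1, fell 1.32-fold and 1.21-fold. ZEB2 fell 1.16-fold in its brighter row, where its other row differed by -0.09. FOSL2, an AP-1 subunit, rose 1.22-fold and IRF2 1.13-fold. PRRX1, a factor that defines this state, measured 5.77 ± 0.07 in DMSO and 5.83 ± 0.11 in BIX01294 (SD, n = 3), and did not pass (adjusted p 0.606 in limma). IRF2 lost its call without any of the 6 arrays (up to 0.145), FOSL2 without DMSO replicate 1 or BIX01294 replicate 2 (up to 0.0586), and ZEB2 kept it only without BIX01294 replicate 3 (up to 0.114). Without DMSO replicate 1 or BIX01294 replicate 2, 3 genes of the list were called.

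**Figure D5:**
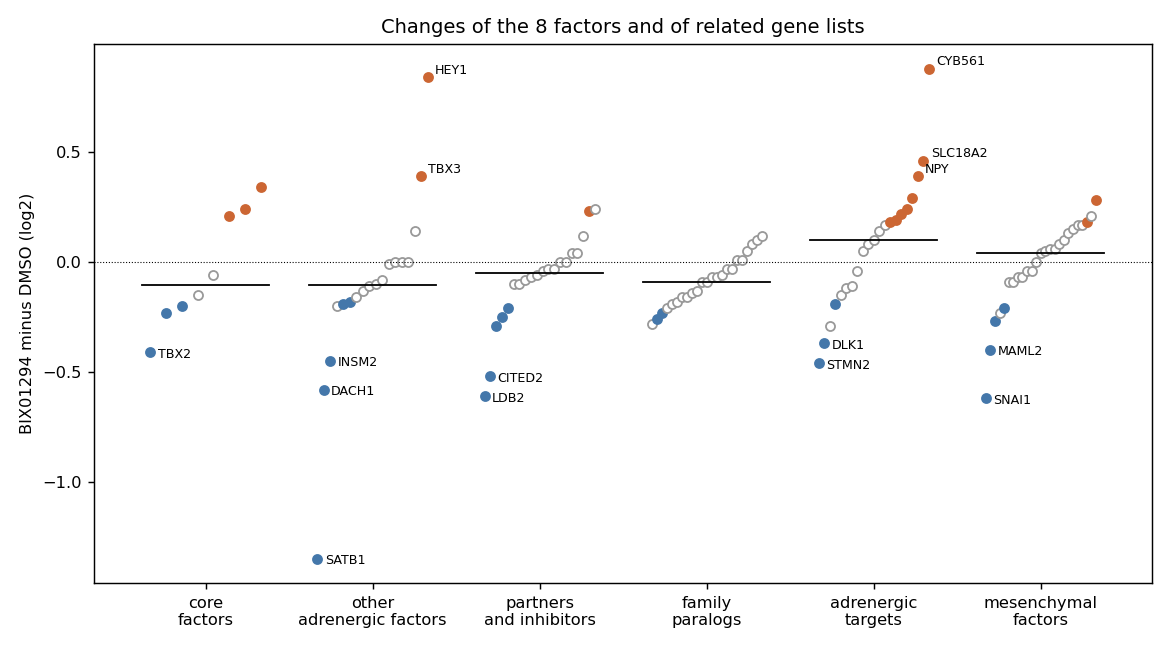
Changes (BIX01294 minus DMSO, log2, vertical axis) are shown for the 8 core factors and 5 related lists, 1 point per gene in rising order. Filled points have an adjusted p under 0.05 (orange higher, blue lower), black bars are list medians, and SATB1 has the largest fall of all.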

How the data were processed

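RNA was measured on Affymetrix arrays in 3 DMSO and 3 BIX01294 samples of BE(2)-C cells. The deposited table holds log2 expression values, 1 column per array; the log2 scale was read from the values. Per the submitters' processing notes Partek was used. How background, normalization and summarization were handled is not given in the sources used here.

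Rows with exactly 1 gene symbol in the platform annotation (19158 of 32321) were kept, symbols were updated through Entrez identifiers (19128 matched RefSeq, GRCh38.p14), and the row with the highest mean stood for a gene (18404 genes). limma 3.58.1 (R 4.3.3) was fitted to these values without further normalization, with treatment as the only term. The fit was tested on 20 simulated data sets of 18404 genes, 200 of them changed. It recovered 11.4% of changes of 0.25 on the log2 scale, 67.3% of 0.5 and 95.2% of 1. Of its calls 4.11% were false. In the data 4349 genes were called. The adjustment is stricter with only 200 changed genes, so these shares check the fit and do not give its recovery in the data. Replicates differed by a median of 0.0832 to 0.116.

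The members and lists were chosen with earlier results of these data known. Named beside the members were up to 4 called genes per direction and list, the largest changes with no overlap between groups, MYCN, the nearest measured gene on each side of a called member, and the 2 genes most correlated with each called member. The comparison of TBX3 with TBX2, the overlapping genes and TBX20, LDB1, TH, DBH, DDC, PRRX1, EYA1, CD68 and S100B were added after their values were seen. Alternatives were 2 normalizations, 2 filters on dim genes, 2 other choices of row, array weights, a replicate block, robust estimation together with an intensity trend, a minimum change of 0.2 and each array left out.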

Additional observations from a re-analysis of the deposited data

How the results depend on the processing

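No member changed sign in any of the 16 alternatives, and none of the differences between the HAND, GATA or TBX pairs did in the 11 computed for them. Filters, the intensity trend with robust estimation and the minimum change do not bear on those pair differences. Array weights can move them, but the pair differences were not computed with array weights. With a minimum absolute change of 0.2 on the log2 scale, 0 members were called higher and 1, TBX2, lower. In the lists, 4 other adrenergic factors, 2 partners, 0 family paralogs, 3 noradrenergic or neuronal genes and 1 mesenchymal factor were called. Over all 18404 genes the calls fell from 4349 to 1049 with that minimum. Quantile normalization gave 11 other adrenergic factors and 4 family paralogs, with 4538 calls over all genes. An intensity trend with robust estimation gave 11 other adrenergic factors, with 5324 calls over all genes. Centring gave 1 family paralog (4298 calls over all genes) and array weights gave 4 (4830). The lower quartile and median filters gave 5 and 4 family paralogs, with 4859 of 13803 and 4749 of 9202 genes called. The cause of these moves was not tested. Leaving out each array gave 2 to 3 members higher and 1 to 3 lower, with 3018 to 3663 calls over all genes. The list counts were 5 to 7 other adrenergic factors, 3 to 5 partners, 0 to 3 family paralogs, 6 to 9 noradrenergic or neuronal genes and 3 to 5 mesenchymal factors. The pair differences in these fits were -0.46 to -0.42 for GATA3 against GATA2 and 0.37 to 0.40 for HAND1 against HAND2.

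The labels do not say that a replicate number marks a shared culture, and same-numbered arrays did not deviate together (r = 0.193, -0.176 and 0.0545 for numbers 1, 2 and 3). With the replicate block 3641 genes were called against 4349 without it. PHOX2A (0.0847) and GATA2 (0.0623) lost their calls under the block, 1 family paralog was called, and the pair differences had an exact permutation p of 0.25, the smallest that 3 blocks allow. The number of arrays limits the precision, and no detection call separates dim genes from background.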

Other observations

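Patterns most like those of the called members over the 6 arrays were looked up by Pearson's r among all genes, as a description. All 6 arrays carry the treatment difference, which raises r between genes that moved the same way: between 231 (PHOX2A) and 1301 (ISL1) genes had an r above 0.95. The genes most like ISL1 were GINS1, a replication factor subunit (r = 0.999), and ZMPSTE24, a protease that matures lamin A (r = 0.999). HAND1 was most like CDR2L and NOP14 (r = 0.999 and 0.997), and GATA2 most like RRP9 and INF2 (r = 0.996 for both). TBX2 was most like ATF5, a stress-responsive transcription factor (r = 0.999), and CLIP3 (r = 0.999). GATA3 was most like TRIP10 and RPS20 (r = 0.999 for both), and PHOX2A most like CREB3L2 and SREBF1 (r = 0.997 and 0.996).

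Of 14 measured neighbours of the called members, overlapping genes included, 3 were called, or 21.4%, near the 23.6% of all genes. That share includes dim genes below every array median, such as PELO (4.20 in DMSO), CELF2 (4.62), DNAJB8 (5.59), PARP8 (5.61) and FOLR2 (5.73). LARP1 (11.23) and TAF3 (9.23) were bright and not called. The called neighbours were BCAS3, which kept its call with any single array left out, INPPL1 and SAP30L. SAP30L, next to HAND1, was 0.19 ± 0.0584 (SE) higher on the log2 scale (adjusted p 0.0444 in limma), a call lost without any of the 6 arrays (0.0612 to 0.124), and LARP1 on its other side differed by 0.07 ± 0.0522. The neighbours of ISL1 (PARP8 and PELO), GATA2 (DNAJB8 and LINC01565) and GATA3 (TAF3 and CELF2) did not pass, nor did LINC02875 beside TBX2, GATA3-AS1, or FOLR2 and LOC220077 beside PHOX2A.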
